A study of Mus musculus with 24 samples.

Results

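The genes of 10 subunits of voltage-gated calcium channels were followed across sorted cortical nuclei of WT and Kdm6b-cKO mice. These were Cacna1a, Cacna1b, Cacna1c, Cacna1d, Cacna1e, Cacna1g, Cacna1h, Cacna1i, Cacnb4 and Cacna2d1. They were chosen by name, with earlier results of these data known, and all 10 were found among the 25135 genes listed at both ages. RNA was sequenced from nuclei of the Emx1 lineage, sorted from the cortex at postnatal day 1 (P1) and P30 by a SUN1-GFP tag on the nuclear envelope. There were 6 WT and 6 Kdm6b-cKO libraries at each age, 24 in all. Kdm6b encodes a demethylase that removes the repressive histone mark H3K27me3, and the comparison of genotypes asks what its loss does to the cells of this lineage. Kdm6b-cKO animals carried Emx1-Cre and Kdm6b f/f, and WT animals were Kdm6b wt/wt littermates. The WT genotype as written does not give their Cre status, but GFP-positive nuclei were sorted from both genotypes. The lines of both genotypes were on a SUN1-GFP reporter background and backcrossed to C57BL/6. Cre under the control of Emx1 recombines in the stem cells of the dorsal forebrain. Excitatory neurons of the cortex descend from these, and so do glia, which makes the sorted nuclei a mixture of cell types. The labels do not say that each library came from its own animal, so p-values measure the spread between these libraries, which may be partly technical.

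Voltage-gated calcium channels open when the membrane is depolarized and let calcium into the cell, where it triggers transmitter release, shapes firing and signals to the nucleus. The pore is formed by an α1 subunit, which sets the type of current. L-type channels (Cacna1c, Cacna1d) couple activity to transcription, P/Q-, N- and R-type channels (Cacna1a, Cacna1b, Cacna1e) serve transmitter release and dendritic calcium entry, and T-type channels (Cacna1g, Cacna1h, Cacna1i) open at low voltage and support rhythmic firing. Auxiliary β subunits such as Cacnb4 and α2δ subunits such as Cacna2d1 bring high-voltage channels to the surface and adjust their gating.

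The division between high-voltage and T-type channels can be read in the coding sequence of the pore. Each α1 protein has 4 repeats, and each repeat gives 1 acidic residue to the ring that selects for calcium. The stretches below are the 27 coding bases around that residue in repeat III, 5′ to 3′ on the coding strand, from the GENCODE vM1 annotation on NCBIM37, the assembly also called mm9. Capitals mark the codon of the selecting residue.
Cacna1c: ttcaccgtctccaccttcGAAgggtgg
Cacna1d: ttcacagtctcaacttttGAGggctgg
Cacna1a: ttcacagtgtccacaggaGAGggctgg
Cacna1b: ttcacagtgtccacgggaGAGgggtgg
Cacna1e: ttcacagtctctacagggGAAggatgg
Cacna1g: tttgtgctggcctccaagGATggctgg
Cacna1h: ttcgtgctgtcatccaagGATggctgg
Cacna1i: tttgtcttggcctccaagGATggctgg
The 5 high-voltage genes had a glutamate codon here and the 3 T-type genes an aspartate codon. Over the 4 repeats, the high-voltage genes coded for glutamate throughout, and the T-type genes for glutamate in repeats I and II and aspartate in repeats III and IV. Within the window, 2 high-voltage genes shared 19 to 25 of 27 bases (10 pairs), 2 T-type genes 22 to 25 (3 pairs), and a high-voltage and a T-type gene 13 to 16 (15 pairs). The motif by which β subunits bind, in the linker between repeats I and II, was found in the translated transcripts of the 5 high-voltage genes and of none of the 3 T-type genes. Each window lay within a single coding exon. On the plus strand these were chr8:87105219-87105245 in Cacna1a (exon 27 of the transcript used) and chr15:80207219-80207245 in Cacna1i (exon 24). On the minus strand they were chr6:118606136-118606162 in Cacna1c (exon 26), chr14:30913888-30913914 in Cacna1d (exon 27), chr2:24506606-24506632 in Cacna1b (exon 29) and chr1:156292007-156292033 in Cacna1e (exon 29), and, for the T-type genes, chr11:94287779-94287805 in Cacna1g (exon 24) and chr17:25520447-25520473 in Cacna1h (exon 23). The 10 genes are long, spanning between 59.5 kb (Cacna1h) and 603.9 kb (Cacna1c). Cacnb4 covers chr2:52283845-52532350 on the minus strand and Cacna2d1 chr5:15440509-15880329 on the plus strand.

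Values are FPKM as deposited for each library, that is, sequenced fragments counted per kilobase of a transcript and set against the mapped total of the library. The depth of a library after the authors' scaling, read from the steps of 1 fragment in low values, was 190000 to 3890000 reads at P1 and 1930000 to 8280000 at P30. In Kdm6b-cKO library 5 of P1, the shallowest, each member's value stands for about 4.9 to 15 reads at its longest transcript. Counting error in that library is therefore large for all 10 members. At P1, 4 WT libraries and 1 Kdm6b-cKO library had signal in over 100 olfactory receptor genes. The 45S ribosomal RNA precursor (listed as Rn45s) exceeded 1000 FPKM in Kdm6b-cKO libraries 0 and 1 at P1, with 3423 and 3239 FPKM against at most 899 in the others. At P30 it exceeded 1000 FPKM in WT libraries 1 to 5 and Kdm6b-cKO libraries 2 to 4, and was below it in WT library 0 and Kdm6b-cKO libraries 0, 1 and 5. Kdm6b itself was 37.8 ± 11.3 FPKM in the WT libraries of P1 and 29.0 ± 9.67 FPKM in those labelled Kdm6b-cKO, and 21.6 ± 4.08 FPKM and 23.4 ± 4.36 FPKM at P30 (SD, n = 6 each). Its values cover the whole gene, so loss of the floxed exons cannot be read from them. The authors reported an efficient loss of Kdm6b mRNA by qRT-PCR of sorted GFP-positive nuclei. In the libraries used here, every genotype difference rests on the labels. All 7 markers of glutamatergic neurons were above 0 in every library of P1, and 2 of them were at 0 in some library of P30. Their summed level was 364 to 617 FPKM in WT and 428 to 925 FPKM in Kdm6b-cKO at P1, and 198 to 310 FPKM and 133 to 363 FPKM at P30. Markers of cells that the paper does not list among the Emx1 progeny were present too. In WT, the GABAergic sum was 440 to 842 FPKM at P1 and 32.7 to 389 at P30. That of microglia was 49.4 to 108 and 6.85 to 33.2 FPKM, and that of endothelial and mural cells 108 to 212 and 2.88 to 14.2 FPKM. The source of this signal was not tested.

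L-type pore genes were present at both ages. Cacna1d, the L-type gene whose channel opens at the more negative voltages, was the more abundant of the pair. In WT at P1 it ranged from 5.96 to 11.2 FPKM with a median of 8.11, and in Kdm6b-cKO from 2.06 to 18.1 FPKM with a median of 6.47. Kdm6b-cKO libraries 0 and 1 (16.6 and 18.1 FPKM) lay above every WT library, libraries 2, 3 and 4 (5.21, 2.06 and 4.76 FPKM) below every WT library, and library 5 (7.74 FPKM) among them. The log2 fold change of Kdm6b-cKO over WT was -0.21 (standard error, SE, 0.47, limma adjusted p = 0.849). At P30 Cacna1d ranged from 18.9 to 34.0 FPKM (median 28.9) in WT and from 19.8 to 61.2 FPKM (median 29.1) in Kdm6b-cKO. The groups overlapped, and the log2 fold change was 0.19 (SE 0.28, limma adjusted p = 0.822).

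Cacna1c, the main L-type gene of forebrain neurons, ranged from 2.55 to 4.81 FPKM (median 3.35) in WT and from 1.49 to 8.12 FPKM (median 4.86) in Kdm6b-cKO at P1. At P30 it ranged from 4.90 to 10.9 FPKM (median 9.25) in WT and from 8.25 to 12.7 FPKM (median 9.35) in Kdm6b-cKO. The genotypes overlapped at both ages. The log2 fold changes were 0.29 at P1 (SE 0.45, limma adjusted p = 0.774) and 0.28 at P30 (SE 0.21, limma adjusted p = 0.632).

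Among the genes of transmitter release channels, Cacna1b (N-type) was the most abundant at P1. It ranged from 9.89 to 16.9 FPKM (median 13.2) in WT and from 6.18 to 18.2 FPKM (median 8.91) in Kdm6b-cKO. By P30 it lay between 24.7 and 46.2 FPKM (median 36.8) in WT and between 29.3 and 47.9 FPKM (median 37.7) in Kdm6b-cKO. On the log2 scale the fold change was -0.44 at P1 (SE 0.30, limma adjusted p = 0.515) and 0.04 at P30 (SE 0.19, limma adjusted p = 0.955). The P30 estimate plus or minus 2 standard errors ran from -0.33 to 0.41.

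Cacna1a, the P/Q-type pore gene of fast central synapses, ranged from 3.16 to 5.46 FPKM (median 3.94) in WT at P1 and from 3.81 to 16.2 FPKM (median 7.56) in Kdm6b-cKO. Kdm6b-cKO libraries 0, 1 and 5 (11.9, 16.2 and 10.2 FPKM) lay above all WT libraries and the other 3 (3.81 to 4.89 FPKM) among them. At the longest transcript, the values of libraries 0, 1 and 5 stand for about 31.3, 103.5 and 15 reads. The log2 fold change was 0.82 (SE 0.41, limma adjusted p = 0.374). At P30 Cacna1a ranged from 19.2 to 43.5 FPKM (median 34.6) in WT and from 21.8 to 67.4 FPKM (median 40.8) in Kdm6b-cKO, which gave a log2 fold change of 0.24 (SE 0.32, limma adjusted p = 0.805). Here Kdm6b-cKO fell into 3 libraries above all WT libraries (55.4, 61.2 and 67.4 FPKM) and 3 libraries between 21.8 and 26.2 FPKM.

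Cacna1e, the R-type pore gene, had the widest relative spread of the 10 in 3 of the 4 groups. In WT it ranged from 2.90 to 6.69 FPKM (median 4.33) at P1 and from 6.88 to 33.4 FPKM (median 19.9) at P30. In Kdm6b-cKO it ranged from 1.19 to 19.5 FPKM (median 3.15) at P1 and from 7.18 to 116 FPKM (median 25.9) at P30. The SD over the 6 Kdm6b-cKO libraries was 109% of the mean at P1 and 103% at P30, and in WT at P30 it was 48.7%. In WT at P1 its 36.6% was below the 39.6% of Cacna1g and the 37.1% of Cacna1h. The log2 fold changes were -0.12 at P1 (SE 0.64, limma adjusted p = 0.944) and 0.58 at P30 (SE 0.69, limma adjusted p = 0.775), so at P30 the estimate plus or minus 2 standard errors ran from -0.80 to 1.96.

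Of the T-type genes, Cacna1g had the smallest genotype p at P1 of the 10 members. It ranged from 5.75 to 16.8 FPKM (median 9.30) in WT and from 2.82 to 10.4 FPKM (median 4.57) in Kdm6b-cKO. In 5 of the 6 Kdm6b-cKO libraries (all but library 1) it lay between 2.82 and 6.25 FPKM, and the groups overlapped. Of these, the values of libraries 0 and 5 stand for only about 17.5 and 8.2 reads at the longest transcript. The log2 fold change was -0.96 (SE 0.39), which did not pass over all genes tested (limma adjusted p = 0.280; exact two-sided permutation test, unadjusted p = 0.0281). The P30 values were 16.1 to 38.9 FPKM (median 29.7) in WT and 19.3 to 36.4 FPKM (median 29.7) in Kdm6b-cKO. The P30 log2 fold change was -0.04 (SE 0.24, limma adjusted p = 0.966).

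Cacna1h, a T-type gene best known from sensory neurons, had the highest WT mean of the 10 genes at P1. It ranged from 11.1 to 27.3 FPKM (median 14.5) in WT and from 9.71 to 75.7 FPKM (median 15.8) in Kdm6b-cKO, where libraries 0 and 1 held 51.1 and 75.7 FPKM and the other 4 at most 19.5 FPKM. At P30 it ranged from 11.1 to 22.4 FPKM (median 20.4) in WT and from 13.0 to 40.0 FPKM (median 19.4) in Kdm6b-cKO. The log2 fold changes were 0.45 (SE 0.49, limma adjusted p = 0.679) and 0.17 (SE 0.27, limma adjusted p = 0.845).

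Cacna1i, the slowest of the T-type genes to inactivate, was the lowest of the 10 at P1. It ranged from 0.916 to 1.70 FPKM (median 1.59) in WT and from 0.147 to 2.69 FPKM (median 0.472) in Kdm6b-cKO. At its longest transcript, the Kdm6b-cKO values at P1 stand for about 2 to 20 reads a library, so counting error is large. Its P30 values were 5.10 to 14.6 FPKM (median 12.3) in WT and 4.91 to 11.4 FPKM (median 7.12) in Kdm6b-cKO. The log2 fold changes were -0.99 at P1 (SE 0.71, limma adjusted p = 0.538) and -0.49 at P30 (SE 0.29, limma adjusted p = 0.509).

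Of the auxiliary subunits, Cacnb4 was the steadiest member at P30, with 26.1 to 28.8 FPKM (median 26.8) in WT and 23.1 to 31.3 FPKM (median 25.8) in Kdm6b-cKO, which gave a log2 fold change of -0.03 (SE 0.12, limma adjusted p = 0.945). Its estimate plus or minus 2 standard errors ran from -0.26 to 0.20, the narrowest interval of the 10. At P1 it ranged from 7.34 to 10.6 FPKM (median 7.92) in WT and from 3.01 to 8.70 FPKM (median 7.67) in Kdm6b-cKO, which gave a log2 fold change of -0.41 (SE 0.33, limma adjusted p = 0.574). Cacna2d1, the α2δ subunit that binds gabapentin, ranged from 8.56 to 21.4 FPKM (median 14.0) in WT and from 5.43 to 19.6 FPKM (median 10.0) in Kdm6b-cKO at P1. At P30 it ranged from 22.0 to 36.9 FPKM (median 33.5) in WT and from 22.4 to 34.8 FPKM (median 26.3) in Kdm6b-cKO. Its log2 fold changes were -0.56 (SE 0.33, limma adjusted p = 0.454) and -0.22 (SE 0.16, limma adjusted p = 0.629).

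**Figure D1:**
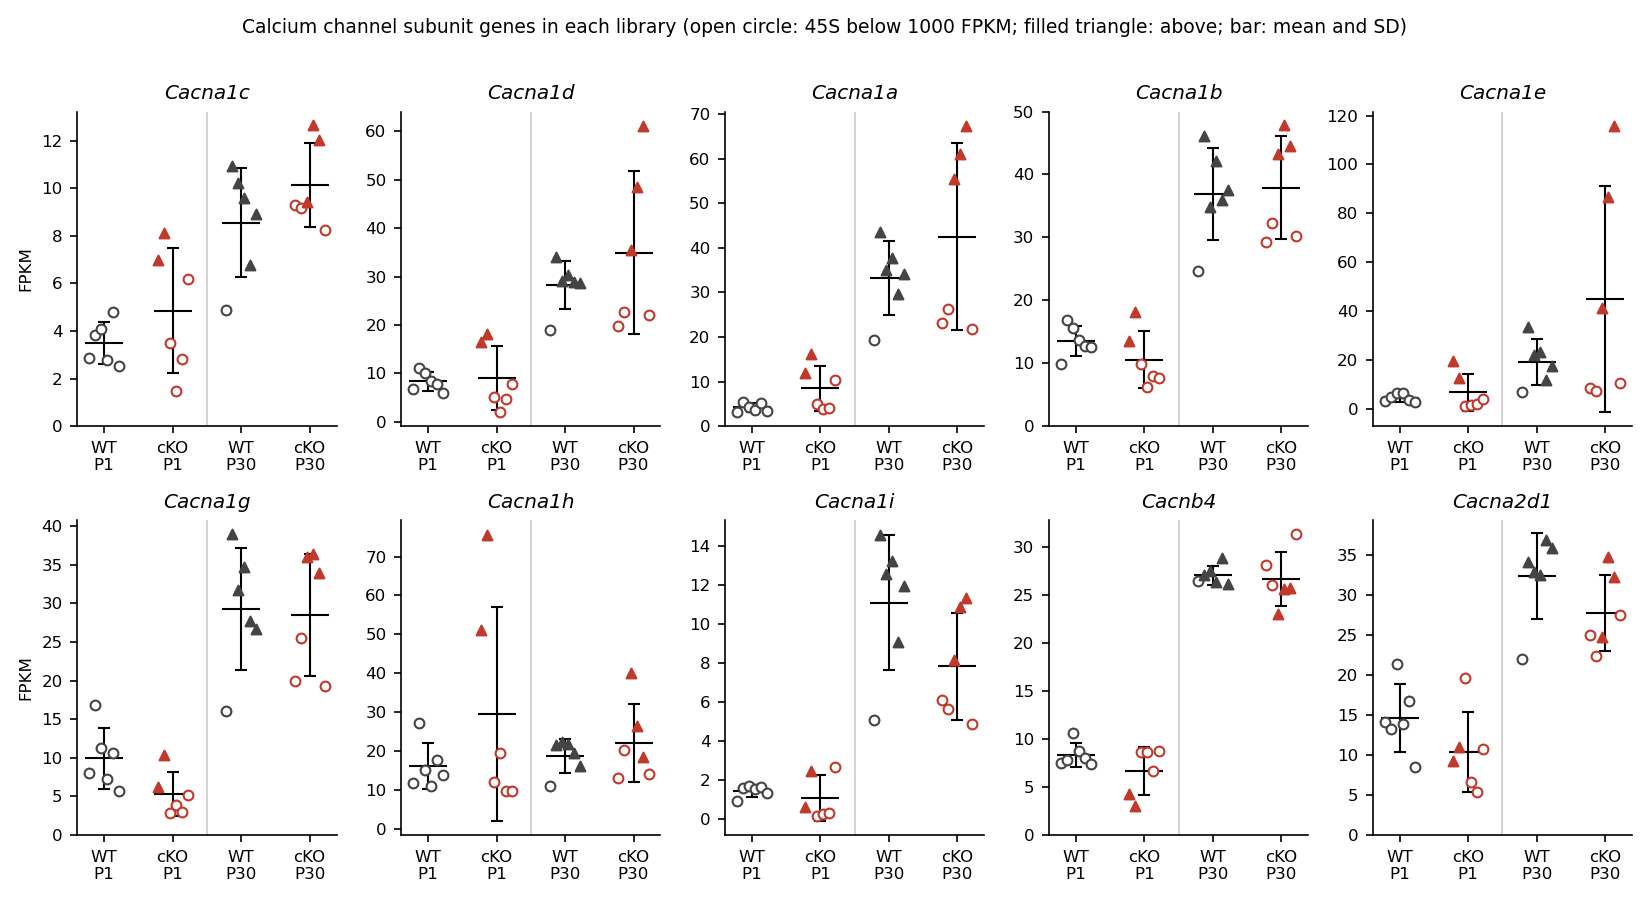
FPKM of the 10 calcium channel subunit genes in each of the 24 libraries, by genotype (WT, Kdm6b-cKO as cKO) and age, each gene on its own linear axis. Open circles are libraries below 1000 FPKM of the 45S precursor, filled triangles those above it, and bars give the mean and SD of 6 libraries. At P30 the triangles of Cacna1a, Cacna1b, Cacna1d, Cacna1e, Cacna1g and Cacna1i lie above every circle, whereas Cacnb4 stays between 23.1 and 31.3 FPKM.

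In the comparison of genotypes, no member was called at either age. A call needed an adjusted p under 0.05 over all genes tested and a change of more than 2-fold. At P1, 0 of the 10 members were called, and 0.0% of the 16250 genes tested were. The paper, which used Cuffdiff at these thresholds, reported both lower and higher genes at P1, Sox10 among the lower. Because the fit used here called no gene at P1, its 0 of 10 does not set the members apart from other genes. Of the members 3 were higher and 7 lower in Kdm6b-cKO, with a median log2 fold change of -0.31, against -0.25 over all genes tested. Cacna1g was the 1 member with an unadjusted p under 0.05 in limma, beside 14.5% of all genes. At P30, 0 of 10 were called against 0.278% of 13289 genes, and 0 had an unadjusted p under 0.05 against 12.7%. There 6 members were higher and 4 lower, with a median log2 fold change of 0.10 against -0.05 over all genes. In these nuclei of mixed type, fewer cells of a type and less RNA per cell cannot be told apart.

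The spread of the members within a group moved with the 45S precursor. At P1, the Kdm6b-cKO libraries 0 and 1 exceeded the other 10 libraries in 5 members, namely Cacna1a, Cacna1c, Cacna1d, Cacna1e and Cacna1h, and 9.6% of all genes tested did so. In 1 member, Cacnb4, they lay below the other 10 (3.01 and 4.24 FPKM against 6.69 to 10.6), as did 10.3% of all genes. Both libraries are Kdm6b-cKO and no WT library of P1 is of this class, so class and genotype cannot be told apart in them. Their summed FPKM of the 6 astrocyte markers was 70.8 and 74.1, against 93.4 to 195 in the other 10, and 2 of the 6 lay below singly. The sums of the other cell type lists overlapped, such as 428 to 488 FPKM against 364 to 925 FPKM for glutamatergic markers. In the fit without Kdm6b-cKO libraries 0 and 1, the 10 members had a median log2 fold change of -0.68. Over all 16919 genes then tested it was -0.12. Of the members 9 were lower in Kdm6b-cKO. Again 0 members were called, and 0.0% of all genes were. Unadjusted p-values under 0.05 were then found in 4 members, Cacna1b (-0.77, SE 0.25), Cacna1d (-0.86, 0.36), Cacna1e (-1.08, 0.45) and Cacna1g (-1.34, 0.34), beside 18.5% of all genes. Their adjusted p-values in limma were 0.123, 0.226, 0.210 and 0.0854. Olfactory receptor signal was also uneven in this fit. WT libraries 2 to 5 had 397 to 794 of these genes above 0, Kdm6b-cKO library 5 had 488, and the rest at most 22. The part of this signal in the fit was not tested. When all P1 libraries were fitted with the olfactory receptor class as a term, 7 members were lower in Kdm6b-cKO. The median was then -0.23 over the members and -0.03 over all genes, and Cacna1g was -1.07 (SE 0.46, limma adjusted p = 0.431). With libraries weighted by depth, which gives the shallow Kdm6b-cKO libraries 0 and 5 little weight, Cacna1g was called lower (log2 fold change -1.51, SE 0.34, limma adjusted p = 0.0389), as 1 of 10 members against 2.49% of all genes.

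At P30 the same feature ran across both genotypes. In 6 members, Cacna1a, Cacna1b, Cacna1d, Cacna1e, Cacna1g and Cacna1i, all 8 libraries above 1000 FPKM of 45S exceeded all 4 libraries below it, which 8.77% of all genes did. No member lay lower in all 8, against 6.13% of all genes. Cacna1e was 6.88 to 10.6 FPKM in the 4 libraries and 11.8 to 116 FPKM in the 8. Cacna1a was 19.2 to 26.2 FPKM and 29.6 to 67.4 FPKM, and Cacna1i 4.91 to 6.10 FPKM and 8.15 to 14.6 FPKM. Cacnb4 overlapped, with 25.99 to 31.3 FPKM and 23.1 to 28.8 FPKM.

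Among cell type markers, the glutamatergic sum separated the 45S classes, and the GABAergic sum overlapped between them. The summed FPKM of the 7 glutamatergic markers was 133 to 198 in the 4 libraries below 1000 FPKM of 45S and 261 to 363 in the 8 above it, although only 2 of the 7 markers separated the classes singly. The sum of the 9 GABAergic markers was 220 to 389 in the 4 and 32.7 to 288 in the 8, with 2 of 9 lower in all 8. Gad1, which defines GABAergic neurons, was above 0 in every library. Its medians were 33.9 FPKM (WT) and 27.7 FPKM (Kdm6b-cKO) at P1, and 4.02 FPKM and 15.2 FPKM at P30. Between the genotypes at P30, the sum of the 6 oligodendrocyte markers was 234 to 442 FPKM in WT and 120 to 168 FPKM in Kdm6b-cKO. Of these 6 markers 3 passed an adjusted p of 0.05 as lower, beside 38 of all 13289 genes. The part of cell composition in the members' values was not tested.

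With the 45S class as a term in the fit, 3 members passed an adjusted p of 0.05 at P30, all higher in Kdm6b-cKO, and 10.7% of all genes passed in either direction. They were Cacna1e (log2 fold change 1.43, SE 0.34, limma adjusted p = 0.0239), Cacna1a (0.64, SE 0.14, adjusted p = 0.0154) and Cacna1d (0.51, SE 0.15, adjusted p = 0.0465). Cacna1e was also more than 2-fold higher. Within the class above 1000 FPKM, the 3 Kdm6b-cKO libraries lay above the 5 WT libraries for Cacna1e (41.1 to 116 against 11.8 to 33.4 FPKM), Cacna1a (55.4 to 67.4 against 29.6 to 43.5 FPKM) and Cacna1d (35.6 to 61.2 against 28.8 to 34.0 FPKM). The folds of the geometric means were 3.63, 1.71 and 1.57, each with p = 0.0179 in an exact two-sided permutation test, the smallest that 5 against 3 libraries allow. Cacnb4 lay lower in these 3 libraries than in the 5 (23.1 to 25.7 against 26.1 to 28.8 FPKM), 0.911-fold with the same exact permutation p = 0.0179. Of all 13289 genes, 10.5% had the 3 Kdm6b-cKO libraries of this class above its 5 WT libraries, as 3 of the 10 members did, and 9.64% had them below, as 1 member did. The 45S values also differed within the class, however. They were 3034, 15420 and 25880 FPKM in the 3 Kdm6b-cKO libraries and 1629 to 4027 FPKM in the 5 WT libraries, and the 2 libraries with the most 45S held the most Cacna1e, Cacna1a and Cacna1d. Depth differed too, at 2640000, 2590000 and 1930000 reads in the 3 Kdm6b-cKO libraries and 5080000 to 8280000 in the 5 WT libraries. Genotype and depth cannot be told apart within this class. Below 1000 FPKM there was 1 WT library against 3 Kdm6b-cKO libraries, so that no exact permutation p under 0.25 could be reached, and the log2 differences of these 3 members were 0.34 (Cacna1e), 0.30 (Cacna1a) and 0.18 (Cacna1d).

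The result depended on how the libraries were weighted. With weights estimated by limma from the scatter of each library, the signs of Cacna1e (-0.66), Cacna1a (-0.32) and Cacna1d (-0.31) were reversed and none passed. Instead Cacna1i (log2 fold change -0.84, SE 0.20, limma adjusted p = 0.0174) and Cacna2d1 (-0.41, SE 0.12, limma adjusted p = 0.0412) passed as lower, 2 of 10 members against 14.2% of all genes. With libraries weighted by depth, the log2 fold changes were -0.09 (Cacna1e), -0.02 (Cacna1a) and -0.06 (Cacna1d). None of the 10 members passed in that fit, and of 13289 genes 78 passed as lower and 34 as higher.

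**Figure D2:**
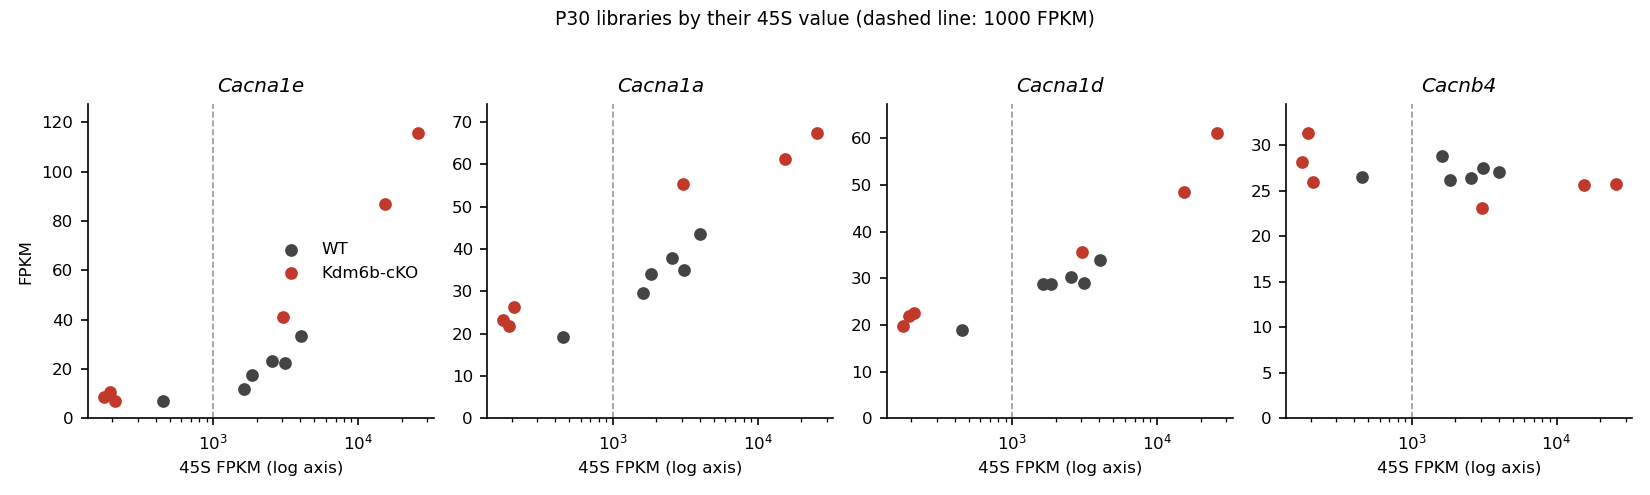
FPKM of Cacna1e, Cacna1a, Cacna1d and Cacnb4 against the FPKM of the 45S precursor (log axis) in the 12 P30 libraries, coloured by genotype, with a dashed line at 1000 FPKM. The 4 libraries on the left hold 6.88 to 10.6 FPKM of Cacna1e, and the 2 Kdm6b-cKO libraries at the far right 86.9 and 116 FPKM, while Cacnb4 shows no such rise.

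**Figure D3:**
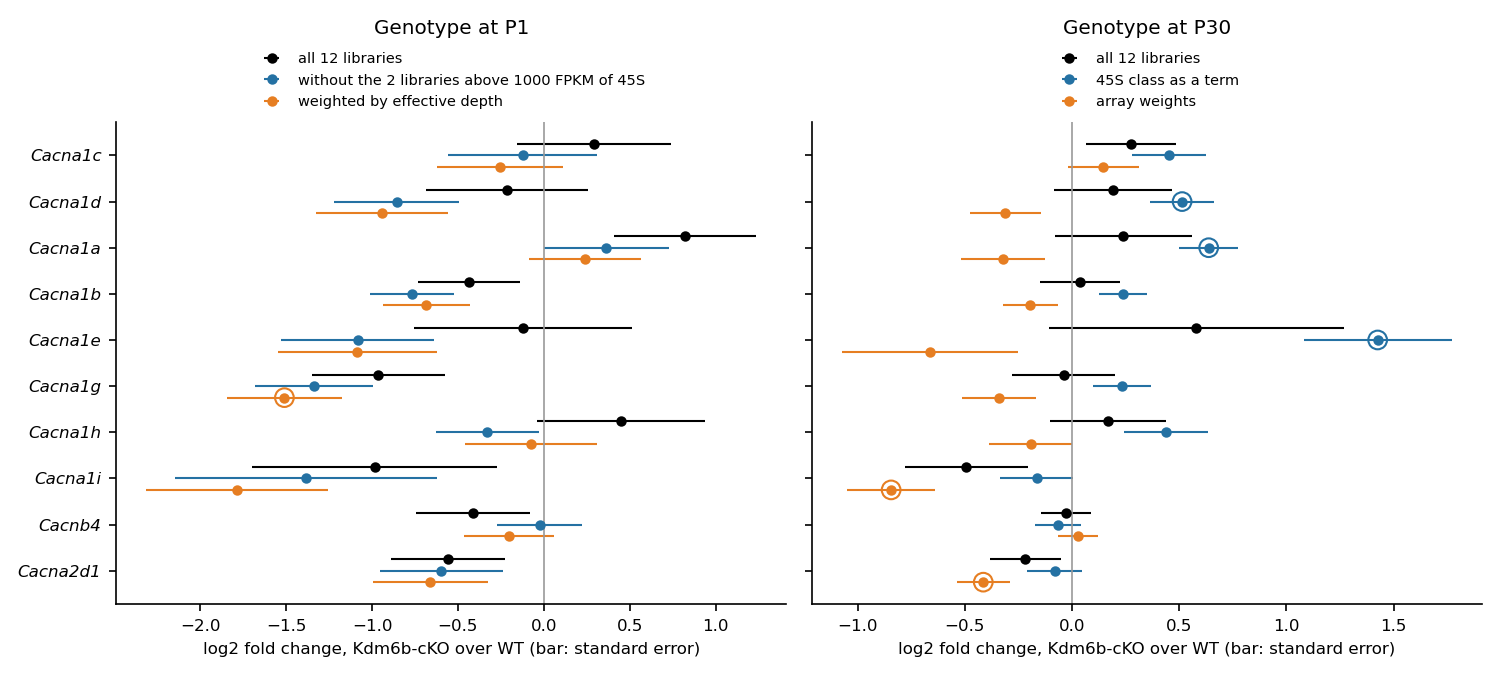
Log2 fold change of Kdm6b-cKO over WT for each member at P1 (left) and P30 (right), with the standard error as a bar. Black points are the fit of all 12 libraries alike, coloured points 2 other fits each, and a ring marks an adjusted p under 0.05. No black point has a ring, and at P30 the fit with the 45S class rings Cacna1a, Cacna1d and Cacna1e on the right of 0 and the fit with estimated weights rings Cacna1i and Cacna2d1 on the left.

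Whether the genotype effect differed between the ages was tested over all 24 libraries with an intercept for each age. None of the 10 members passed an adjusted p of 0.05, and 0.00791% of 12644 genes did. The largest difference was that of Cacna1g, whose log2 fold change was 0.92 higher at P30 than at P1 (SE 0.43, limma adjusted p = 0.367). For the other 9 members the difference lay between -0.58 (Cacna1a) and 0.70 (Cacna1e).

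The ages were compared by rank, since the tables were normalized separately. Each member's FPKM was placed among the 12644 genes that averaged 1 FPKM or more at both ages, as a percentile from 0 to 100 within its library. In both genotypes all 10 members stood higher at P30 than at P1, and 9 of 10 passed an adjusted p of 0.05. Of all genes, 29.3% passed as higher in WT and 29.9% in Kdm6b-cKO. Age, table and any difference in sequencing between the ages cannot be told apart.

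The largest rise in WT was that of the P/Q-type gene Cacna1a, whose percentile was 17.3 to 30.4 at P1 and 71.5 to 87.0 at P30, a mean difference of 59.99 (SE 5.29, limma adjusted p = 7.97e-10). The T-type gene Cacna1i went from 4.82 to 9.11 at P1 to 31.3 to 63.5 at P30, a difference of 47.3 (SE 5.08, limma adjusted p = 2.31e-08). It had been the lowest member and stayed below most others. For the R-type gene Cacna1e the difference was 41.6 (SE 10.2, limma adjusted p = 0.00111).

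The remaining rises in WT lay between 25.02 and 39.1 percentile points. They were 39.1 for Cacna1d, 38.3 for Cacnb4, 34.9 for Cacna1g, 29.5 for Cacna1b, 27.8 for Cacna1c and 25.02 for Cacna2d1, with adjusted p-values between 3.79e-09 and 4.55e-05 in limma. Cacnb4 was again the most even, at 77.5 to 81.1 in all 6 WT libraries of P30. In WT these 9 members did not overlap between the ages, which held in the same direction for 24.7% of all genes. The member left out was Cacna1h. Its WT percentile was 49.1 to 73.0 at P1 and 55.2 to 74.4 at P30, and the difference of 9.80 (SE 6.58, limma adjusted p = 0.207) was within the spread of the libraries.

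In Kdm6b-cKO the largest rise was that of Cacna1g, from 19.0 to 47.9 at P1 to 71.8 to 84.4 at P30 (difference 49.3, SE 5.22, limma adjusted p = 1.91e-08). Cacna1a rose by 43.6, Cacnb4 by 42.03, Cacna1d by 41.4, Cacna1e by 41.4, Cacna1b by 38.4, Cacna1i by 35.0, Cacna2d1 by 32.5 and Cacna1c by 24.5. Cacna1h again did not pass (7.49, SE 6.58, limma adjusted p = 0.339). Here 8 members did not overlap between the ages, beside 13.7% of all genes, since Cacna1e overlapped as well. The difference in rise between the genotypes was tested too, and 0 of 10 members passed, against 0.253% of all genes. For Cacna1a, with the smallest p, the rise was 16.4 points smaller in Kdm6b-cKO (-16.4, SE 7.48, limma adjusted p = 0.322).

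**Figure D4:**
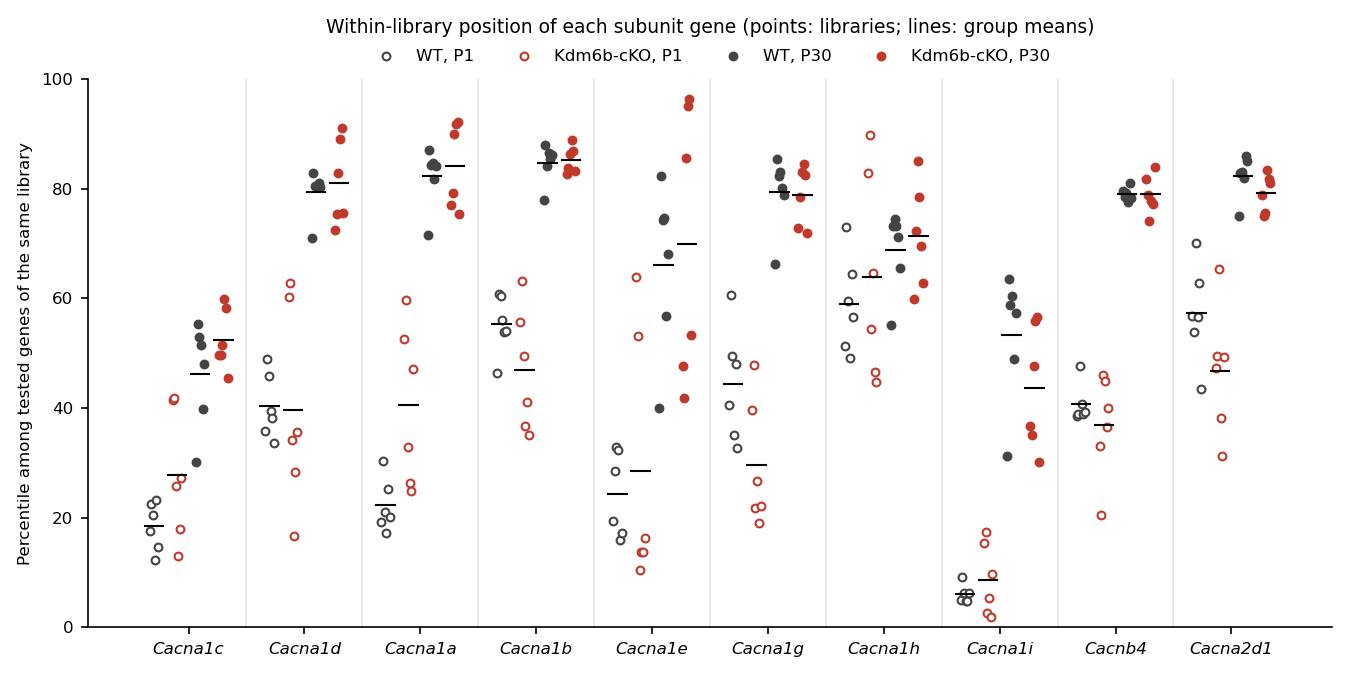
Percentile of each member among the 12644 ranked genes of its own library (0 to 100), for P1 (open points) and P30 (filled points) in WT (grey) and Kdm6b-cKO (red), with group means as lines. Cacnb4 and Cacna1b form tight groups near 79 and 85 at P30, Cacna1e is scattered at both ages in Kdm6b-cKO, and Cacna1h overlaps between the ages.

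Because most P30 libraries in WT were high in 45S and no P1 WT library was, the rise was also taken among libraries below 1000 FPKM. In Kdm6b-cKO (4 libraries at P1, 3 at P30) 9 of 10 members passed as higher, beside 27.5% of all genes. In WT, with 6 libraries at P1 and the single library 0 at P30, whose spread is then taken from the other groups, 5 of 10 passed, beside 13.5% of all genes. Those were Cacna1a (49.3), Cacnb4 (38.9), Cacna1d (30.8), Cacna1i (25.2) and Cacna1b (22.7), and the value of Cacna1h was -3.80 (SE 9.03, limma adjusted p = 0.791). Among libraries with at most 100 olfactory receptor genes above 0 FPKM (2 in WT and 5 in Kdm6b-cKO at P1), 9 of 10 passed in each genotype, beside 22.0% of all genes in WT and 28.8% in Kdm6b-cKO.

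Cell type markers changed with age as well. In WT, of the oligodendrocyte markers 4 of the 4 tested rose, and of the GABAergic markers 5 of 6 tested fell and 1 rose. Of the 7 glutamatergic markers 5 fell and 1 rose. The summed FPKM of the 6 endothelial and mural markers was 57.2 to 212 over the P1 libraries and 2.88 to 14.2 over those of P30. The part of these in the rise of the channel genes was not tested.

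Among the 8 pore genes, the balance of channel classes differed between the ages. T-type genes made up 36.2 to 51.9% of the summed pore FPKM in the WT libraries at P1 and 30.1 to 33.7% at P30. The share of P/Q-, N- and R-type genes was 31.1 to 43.5% at P1 and 45.8 to 50.6% at P30, and that of L-type genes 17.0 to 20.6% and 18.5 to 22.3%. The genes of a class did not move alike. Among the T-type genes, the mean share of Cacna1h in WT was 25.8% at P1 and 10.2% at P30, that of Cacna1g 15.7% at both ages, and that of Cacna1i 2.40% and 5.89%. Among the release channels, that of Cacna1a was 6.80% and 17.9%, that of Cacna1b 22.3% and 20.2%, and that of Cacna1e 7.67% and 9.83%. In Kdm6b-cKO the T-type share was 32.9 to 61.0% at P1 and 17.5 to 34.5% at P30. Its lowest value fell in a library in which Cacna1e alone held 31.8% of the pore FPKM. These shares within a library do not depend on its scaling and are given without a test.

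**Figure D5:**
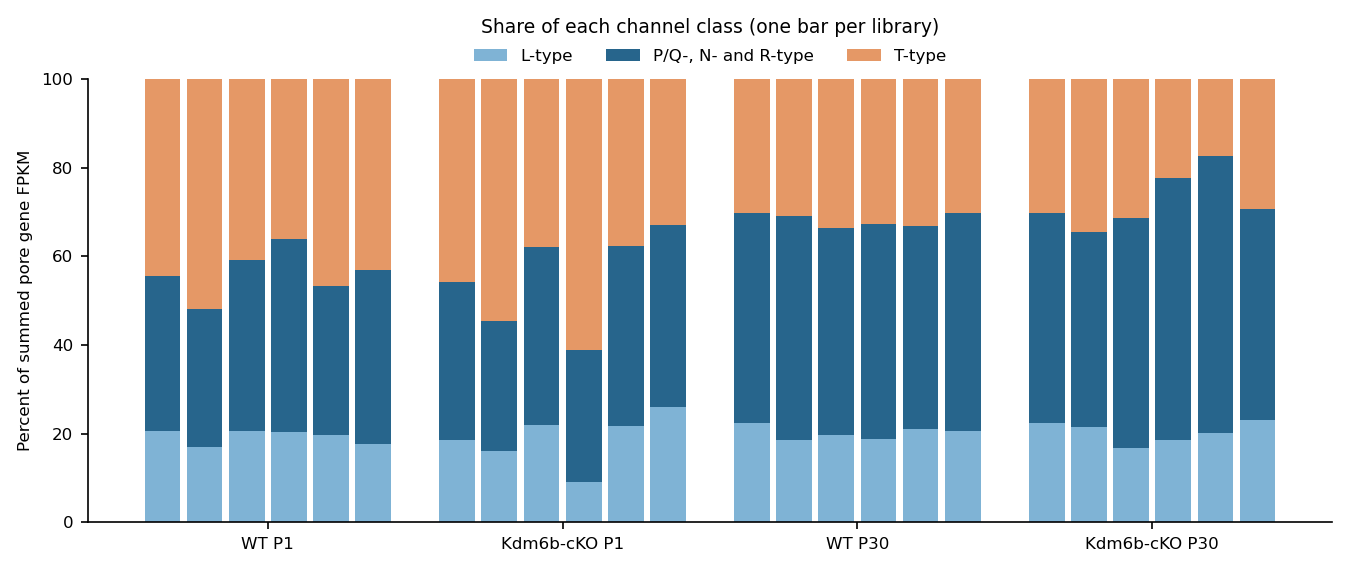
Percent of the summed FPKM of the 8 pore genes taken by the L-type, the P/Q-, N- and R-type and the T-type genes, with 1 bar for each library. The T-type part is 36.2 to 51.9% in WT at P1 and 30.1 to 33.7% in WT at P30.

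Ordered by mean FPKM, which is per length of transcript, WT at P1 ran Cacna1h (16.1 ± 5.98), Cacna2d1 (14.7 ± 4.23), Cacna1b (13.5 ± 2.45), Cacna1g (9.95 ± 3.94), Cacna1d (8.36 ± 1.98), Cacnb4 (8.34 ± 1.23), Cacna1e (4.68 ± 1.71), Cacna1a (4.17 ± 0.957), Cacna1c (3.49 ± 0.891) and Cacna1i (1.46 ± 0.297; SD, n = 6 each). Of the neighbours in this order, Cacnb4 and Cacna1e, and Cacna1c and Cacna1i, did not overlap over the 6 libraries, and the other 7 pairs overlapped. WT at P30 ran Cacna1b (36.9 ± 7.31), Cacna1a (33.2 ± 8.23), Cacna2d1 (32.4 ± 5.38), Cacna1g (29.3 ± 7.91), Cacna1d (28.3 ± 5.01), Cacnb4 (27.1 ± 0.991), Cacna1e (19.2 ± 9.36), Cacna1h (18.7 ± 4.39), Cacna1i (11.1 ± 3.47) and Cacna1c (8.55 ± 2.29; SD, n = 6 each), and every pair of neighbours overlapped. Cacna1h thus stood first at P1 and 8th at P30, and Cacna1a 8th and 2nd. In Kdm6b-cKO the first places were those of Cacna1h at P1 (29.6 ± 27.5 FPKM) and Cacna1e at P30 (45.1 ± 46.3 FPKM; SD, n = 6 each), and both genes had their highest values in libraries above 1000 FPKM of 45S.

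Taken as deviations from their group means over the 24 libraries, most members varied together. Of the 45 pairs, 37 had a Pearson r above 0, with a median of 0.66 and a highest value of 0.90 (Cacna1a with Cacna1d). Cacnb4 went the other way, with a mean r of -0.49 with the other 9. The genes outside the 10 with the highest mean r with them, of 12634 ranked, were Sfpq (0.65), Col5a1 (0.64), Usp34 (0.64), Mycbp2 (0.64) and Rock2 (0.64). Over the other genes the median of the mean r with the members was -0.06. Each of the named genes also had an r below 0 with some member, the lowest between -0.53 (Usp34) and -0.47 (Mycbp2). Sfpq encodes a nuclear RNA-binding protein and Col5a1 a collagen chain. The libraries share their depth and 45S content, with which the members move, and these values are a description.

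The other genes of the pathway were followed in 4 lists. For their counts with age, 29.3% of all genes passed as higher at P30 and 29.2% as lower in WT, and 29.9% and 28.9% in Kdm6b-cKO. Of 11 other channel subunits, 8 were tested at each age and 0 passed for genotype. The smallest p at P1 were those of Cacnb3, a β subunit (log2 fold change -1.05, limma adjusted p = 0.308), and Cacng1, a γ subunit best known from muscle (1.56, adjusted p = 0.362). At P30 they were those of Cachd1 (0.88, limma adjusted p = 0.295) and the α2δ subunit gene Cacna2d2 (1.00, adjusted p = 0.328). Across age in WT, 3 of the 7 tested rose and 1 fell, and the largest differences were the rises of the β subunit genes Cacnb1 (44.2 percentile points) and Cacnb2 (32.7).

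Of 19 channel regulators and partners, 19 were tested at P1, where 0 passed, and 16 at P30, where 1 passed. Among all 13289 genes tested at P30, 38 passed as lower and 11 as higher. The list gene that passed was Stx1a, encoding syntaxin 1A, a SNARE protein of the presynaptic membrane that binds P/Q- and N-type channels. At P30 it ranged from 170 to 225 FPKM (median 206) in WT and from 97.8 to 126 FPKM (median 105) in Kdm6b-cKO. The groups did not overlap, and the log2 fold change was -0.89 (SE 0.14, limma adjusted p = 0.0204), under the 2-fold needed for a call. It passed under the 10 other settings, with adjusted p-values up to 0.0342, but in 6 of 12 fits with 1 library left out it did not (adjusted p up to 0.0756, log2 fold change -0.94 to -0.86). Those were the fits without WT library 2, 3, 4 or 5 or without Kdm6b-cKO library 0 or 1. At P1 Stx1a was 117 ± 38.7 FPKM (WT) against 47.5 ± 27.6 FPKM (Kdm6b-cKO) (SD, n = 6 each), with the smallest p of the list there (-1.53, limma adjusted p = 0.190), followed by the channel adaptor gene Stac (-2.65, adjusted p = 0.240). With age in WT, 6 of 16 rose and 4 fell, led by a fall of Gng2, a G protein γ subunit (-62.3 points), and a rise of the active zone gene Rimbp2 (58.6).

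Among 9 calcium-activated and intracellular calcium channels, 0 passed for genotype at either age. The potassium channel gene Kcnn2 (0.90, limma adjusted p = 0.180) and Kcnma1 (-0.66, adjusted p = 0.269) had the smallest p at P1, and Ryr3 (0.83, adjusted p = 0.315) and Kcnma1 (-0.29, adjusted p = 0.394) at P30. With age in WT 7 of 9 rose and 0 fell, most of all the ryanodine receptor genes Ryr2 (83.0 points, from a mean percentile of 7.36 to 90.3) and Ryr1 (49.4). Among 12 genes of calcium-dependent kinases, the phosphatase calcineurin and calcium extrusion, 0 passed for genotype. Ppp3r1, the regulatory subunit of calcineurin (-1.14, limma adjusted p = 0.178), and the calcium pump gene Atp2b2 (-0.84, adjusted p = 0.268) had the smallest p at P1, and Camkk2 (-0.52, adjusted p = 0.349) and Atp2b2 (-0.53, adjusted p = 0.399) at P30. With age in WT 9 of 12 rose and 3 fell, led by Camk2a (65.9 points) and Atp2b2 (35.9). In Kdm6b-cKO the counts with age were 3 risen and 1 fallen of 7 other subunits, 8 and 3 of 16 regulators and partners, 6 and 0 of 9 calcium-activated and intracellular channels, and 10 and 0 of these 12 genes.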

How the data were processed

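RNA of sorted cortical nuclei was measured in 24 libraries, 6 per genotype and age. The authors aligned reads to mm9 with HISAT2 and deposited FPKM values from Cuffdiff for each library, with 1 table per age. The submitters' processing notes name these tools, and their versions are not given in the sources used here. The FPKM had also been scaled between libraries. Tables with the authors' own comparison (fold changes, p and q values) were not used. Libraries are named by group and by the number 0 to 5 of their column.

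Within each age, limma 3.58.1 in R 4.3.3 (eBayes with intensity trend, two-sided) was fitted to log2(FPKM + 0.1) of those genes that averaged 1 FPKM or more, and p-values were adjusted after Benjamini and Hochberg across every gene tested. Fold changes on this scale understate those of low genes. Ages were compared by limma on percentile ranks. Single genes were also compared by exact permutation tests over the 924 divisions of 12 libraries. The scripts were tested on simulated data. Effective depth assumes fragments of 200 bases. Sequences came from GENCODE vM1 transcripts on NCBIM37, translated with biopython 1.88. Other steps used Python 3.11.15, numpy 2.4.6, pandas 2.3.3 and matplotlib 3.10.9.

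The 10 members and the gene lists were chosen with earlier results of these data known. Named were all members, Kdm6b, list genes passing for genotype or else the 2 of each list with the smallest p at each age, the 2 of each list with the largest age difference in WT, and the 5 genes most like the members. Alternatives were pseudocounts of 1 and 0.01, other filters, scalings and weights, terms for the olfactory receptor or 45S class, and leaving out each library. Intervals of 2 standard errors cover the spread between libraries.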

Additional observations from a re-analysis of the deposited data

Results flagged for a closer look

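WT library 0 at P30 lay far below the other 5 WT libraries in 2 members. Cacna1d was 18.9 FPKM there against 28.8 to 34.0 FPKM, and Cacna2d1 was 22.0 FPKM against 32.5 to 36.9 FPKM. In both the gap to the nearest library, as a share of the group's range (0.652 and 0.705), exceeded Dixon's 95% critical value for 6 samples. Each of the 10 members was examined in each of 4 groups, 40 in all, and chance exceeds this value in about 1 of 20 groups. This is the 1 WT library of P30 below 1000 FPKM of 45S.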

How the results depend on the processing

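No paired analysis was possible because the columns of the tables carry numbers from 0 to 5 that are not the replicate numbers of the labels. Depth limits the P1 values most, with 190000 reads in the shallowest library. The number of members called moved from 0 to 1 at P1 with weights by depth and from 0 to 1 at P30 with the 45S class as a term, and the number of members rising with age in WT from 9 to 5 among libraries below 1000 FPKM of 45S. Leaving out 1 library at a time left these counts at 0 and 0 called and at 9 and 9 rising in WT and Kdm6b-cKO. Weights by depth, both fits without the 2 Kdm6b-cKO libraries or the shallow ones, and the age fits by library class were added after the data were seen. For all of these changes the cause was not tested.

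Signs at P1 changed for Cacna1c with array weights (-0.23), weights by depth (-0.25), without the 2 libraries above 1000 FPKM of 45S (-0.12) and in libraries of at least 500000 reads (-0.03), for Cacna1h with weights by depth (-0.07) and without those 2 libraries (-0.33), and for Cacna1i with quantile normalization (0.20). At P30 they changed with array weights for Cacna1a (-0.32), Cacna1b (-0.19), Cacna1d (-0.31), Cacna1e (-0.66), Cacna1h (-0.19) and Cacnb4 (0.03), with weights by depth for Cacna1a (-0.02), Cacna1b (-0.06), Cacna1d (-0.06) and Cacna1e (-0.09), with the 45S class as a term for Cacna1g (0.23), and with quantile normalization for Cacnb4 (0.01). In the age comparison in WT, Cacna1h became -3.80 in libraries below 1000 FPKM of 45S. The difference of the genotype effect between ages changed sign for Cacna1i with a pseudocount of 1 (-0.05) and with quantile normalization (-0.78). With 1 library left out, signs changed at P1 for Cacna1d (range -0.48 to 0.13) and Cacna1e (-0.57 to 0.22), at P30 for Cacna1b (-0.07 to 0.11), Cacna1g (-0.20 to 0.06), Cacna1h (-0.02 to 0.30) and Cacnb4 (-0.08 to 0.01), and in the difference between ages for Cacna1c (-0.30 to 0.17) and Cacna1h (-0.50 to 0.09). None of these values passed an adjusted p of 0.05. At a mean of at least 5 FPKM, Cacna1c and Cacna1i were not tested at P1 or by rank, and 7 of the 8 members left rose in each genotype.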
